A study of Mus musculus with 5 samples.

Results

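NEUROD2 binding was examined at the loci of 32 mouse genes that encode glutamate receptor subunits or the auxiliary proteins that travel with them, out of 21938 protein-coding genes annotated on the mm10 genome. The data were ChIP-Seq peak lists from E14.5 cerebral cortex (dorsal telencephalon) of BALB/c mice, in which chromatin was precipitated with 1 of 3 antibodies against NEUROD2, named ab1, ab2 and ab3. Each antibody gave 1 library from pooled embryos, and every library carried the same genotype, age and tissue. A mouse GFP antibody (for ab1) and a rabbit GFP antibody (shared by ab2 and ab3) gave the control libraries against which the peaks were found, and no peak list of a GFP library was analysed here. Because ab2 and ab3 shared a control, their peaks were not fully independent of each other. The cortex was not sorted, so a peak can come from any cell type in it. A peak belonged to a locus when its midpoint lay in the gene span (the longest transcript of GENCODE M21) or within 50 kb of either end. The transcription start site (TSS) of a gene is that of its longest transcript unless stated. Overlapping peaks were merged into regions, and a region with peaks of at least 2 antibodies is called a shared region. The 32 loci held 159 of the 32261 shared regions of the genome. There was a single condition and no replicate library, so all values are descriptions without a test, the spread given is that between antibodies, and intervals on shares are 95% Wilson intervals that cover counting error only.

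Glutamate is the main excitatory transmitter of the cortex. AMPA receptors carry most of the fast synaptic current, NMDA receptors pass calcium and act as coincidence detectors, kainate receptors modulate release and excitability, delta receptors link pre- and postsynaptic membranes, and metabotropic receptors signal through G proteins. TARPs (the Cacng genes listed here) set the trafficking and gating of AMPA receptors, and Neto proteins do so for kainate receptors. NEUROD2 is a basic helix-loop-helix factor of young excitatory neurons that binds DNA at E-boxes. A peak gives a place of binding and not a level of expression of the gene it lies in.

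The sequences below show the E-boxes in the highest 3-antibody region of 8 loci, 1 region per locus, to show the motif at strong binding sites of different genes. They are the 8 loci with the highest such region among those whose region had the motif in its central window and did not overlap a UTR, for which reason Grik5 (summed score 3301) is not shown. Each is 100 bases of the plus strand of the GRCm38 (mm10) reference genome, which is of the C57BL/6J strain, so BALB/c variants are not seen. Capitals mark the extended E-box of the study, which has a core of CAGCTG, of CAGATG (which reads as CATCTG on the opposite strand) or of CATATG and then a G or T, on either strand.
Grm4, downstream flank, chr17:27389545-27389644: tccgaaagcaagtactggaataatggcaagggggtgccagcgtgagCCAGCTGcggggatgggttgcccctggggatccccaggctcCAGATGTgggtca
Grm7, intron 8, chr6:111373110-111373209: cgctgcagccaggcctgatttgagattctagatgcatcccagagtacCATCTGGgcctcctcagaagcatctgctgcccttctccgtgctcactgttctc
Grid1, intron 2, chr14:34944739-34944838: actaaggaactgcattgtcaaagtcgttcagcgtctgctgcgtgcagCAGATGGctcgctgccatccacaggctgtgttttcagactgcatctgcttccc
Cacng4, intron 1, chr11:107791703-107791802: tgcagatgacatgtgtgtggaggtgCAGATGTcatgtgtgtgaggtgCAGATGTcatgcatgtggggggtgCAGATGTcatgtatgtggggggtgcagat
Grik4, intron 8, chr9:42643001-42643100: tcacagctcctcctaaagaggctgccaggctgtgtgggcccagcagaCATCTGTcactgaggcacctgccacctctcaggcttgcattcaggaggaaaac
Grik3, upstream flank, chr4:125478105-125478204: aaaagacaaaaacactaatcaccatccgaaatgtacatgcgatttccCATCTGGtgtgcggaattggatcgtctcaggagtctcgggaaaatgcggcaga
Grm5, last coding exon, chr7:88130125-88130224: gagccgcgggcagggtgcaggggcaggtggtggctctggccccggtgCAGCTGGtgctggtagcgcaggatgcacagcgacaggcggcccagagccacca
Grik2, intron 4, chr10:49560178-49560277: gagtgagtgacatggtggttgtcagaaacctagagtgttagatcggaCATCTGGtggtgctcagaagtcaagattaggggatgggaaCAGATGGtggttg
The CAGATG core is present in 7 of the 8 stretches and is the only core in 6 of them, Grm5 has CAGCTG alone, and Grm4 has both. The stretches were picked for having the motif. Among all shared regions with it in the central window, CAGATG was in 68 of 93 at these loci and in 12629 of 19258 in the genome. The Cacng4 stretch is a tandem repeat. Its 200-bp central window held 6 extended E-boxes, all with the CAGATG core and spaced 22 to 47 bp apart, against at most 3 in any other shared region of these loci and a count as high in 85 (0.263%) of the shared regions of the genome. Of the 18 loci with a 3-antibody region, 12 had an E-box in the central window of their highest one, and 6 (Grin2c, Grin2a, Grm2, Cacng2, Gria1 and Grin2b) had none there.

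At least 1 shared region lay at 27 of the 32 loci (84.4%, interval 68.2 to 93.1%), against 67.6% of all protein-coding loci by the same rule. A region bound with all 3 antibodies lay at 18 loci (56.3%), against 26.7% of all coding loci. A shared region within 1 kb of the TSS was found for 8 genes (25%, interval 13.3 to 42.1%), beside 20.8% of all coding genes, whose share lies inside that interval. The median was 4 shared regions per locus, and 1 over all coding loci. These genes are long, with a median locus of 225 kb against 117 kb, and a longer locus has more room for regions. The shares of all coding loci given above are not matched for length. Of coding loci under 150 kb, 62.6% had a shared region, and of those of 150 to 250 kb, 81.9%. The shares were 91.2% for 250 to 500 kb and 95.4% over 500 kb. In these classes the family had 8 of 9, 7 of 8, 4 of 7 and 8 of 8. Per 100 kb the medians were 1.25 and 0.95 shared regions, and 19 of the 32 loci were above the coding median. Without ab1 or without ab2 the member median fell to 0.115 and the coding median to 0. The 18 loci above a median of 0 are those with at least 1 region, which 26.8% of coding loci had in either setting. The loci covered 0.422% of the known bases of the genome and held 0.493% of its shared regions.

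**Figure D1:**
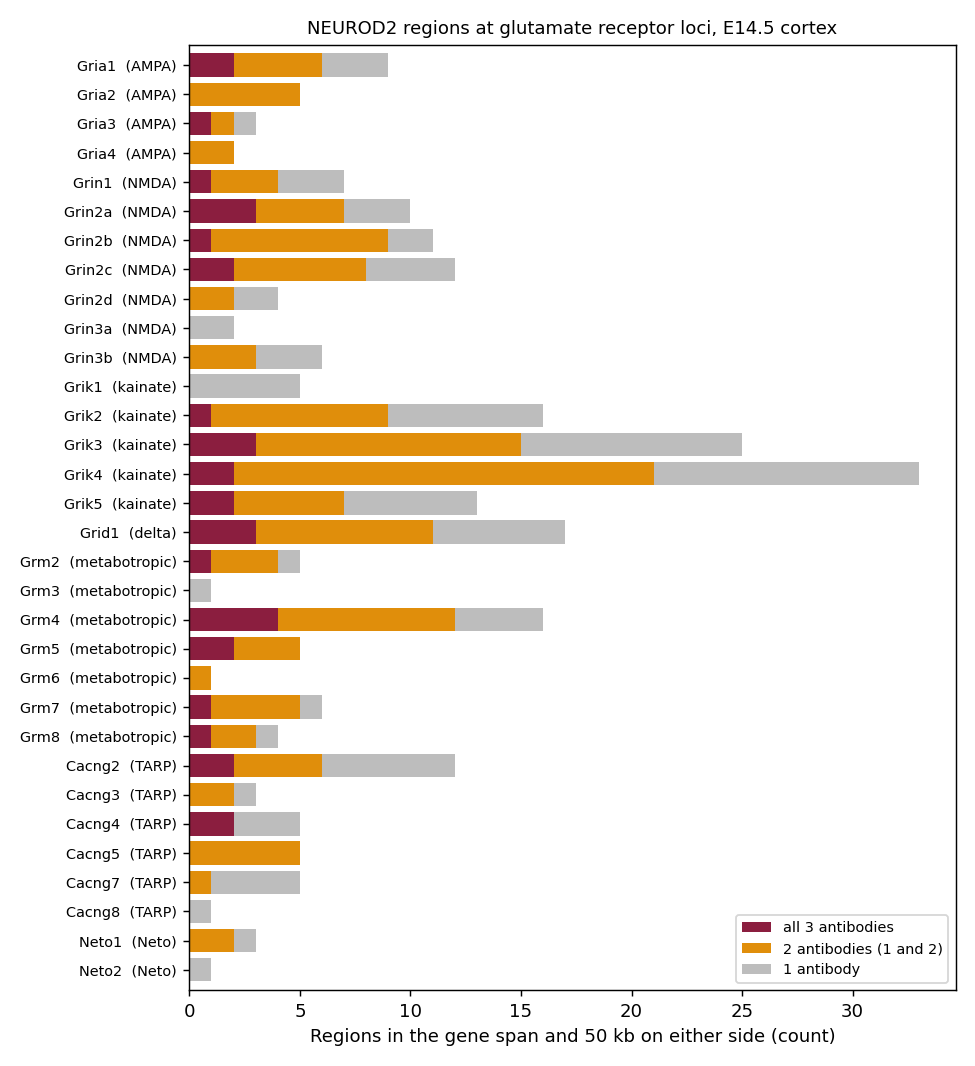
Regions at each locus (bar length, count), with genes grouped by receptor family and bars divided by how many antibodies had a peak in the region. Grik4 leads with 21 shared regions, followed by Grik3 with 15, Grm4 with 12 and Grid1 with 11, but without ab1 or without ab2 the counts are 2, 3, 4 and 3 and Grm4 leads, and 5 genes have single-antibody regions only.

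Set beside coding loci of their own length, the family did not stand on either side as a whole. Of the 32 loci, 14 had more shared regions than the median of their length class, 7 had as many and 11 had fewer. The shorter loci leaned upward. The 9 loci under 150 kb had a median of 3 regions against 1 for 17002 coding loci, and the 8 loci of 150 to 250 kb had 3.5 against 2. The longer loci did not. The 7 loci of 250 to 500 kb had a median of 2 regions against 4, and the 8 loci over 500 kb had 8 against 9. At the 9 loci under 150 kb the flanks are most of the searched sequence. Most of their shared regions lay there, as did 6 of 8 at Grin2c, 3 of 4 at Grin1 and 3 of 5 at Cacng5. Another gene's TSS was nearest to every region of Grin2d, Grin3b and Grm6, and the gene's own TSS to every region of Cacng5 and Cacng7. Across the 32 loci, Spearman's rho between locus length and shared regions was 0.32, and across all coding loci it was 0.31, in both cases over the same libraries. The 6 loci with most regions, picked for their counts, held 77 of the 159 (48.4%) in 28.9% of the searched sequence.

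**Figure D2:**
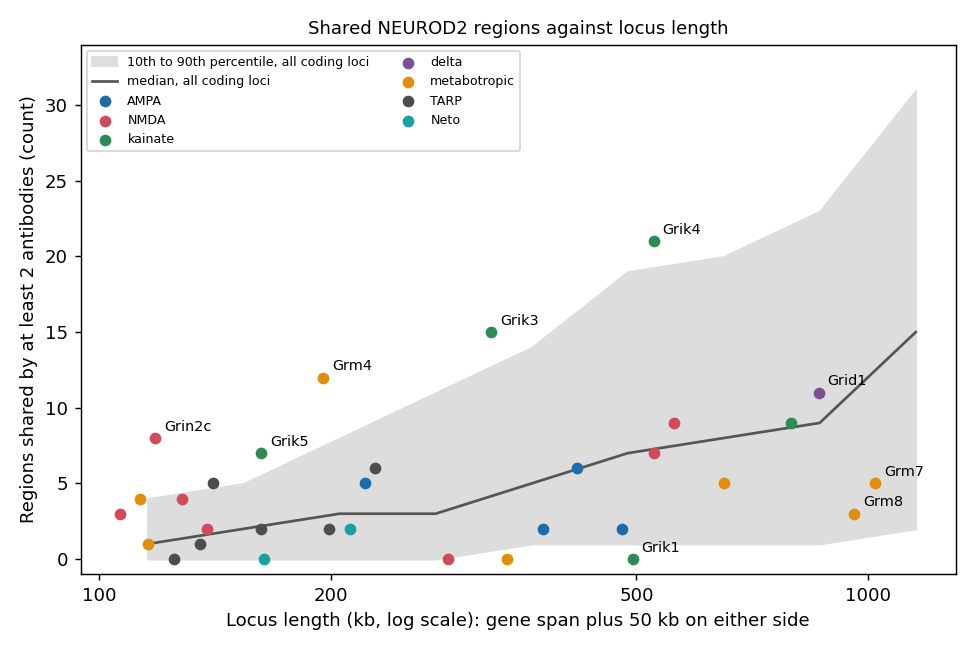
Shared regions (count) against locus length (kb, log scale) for the 32 genes, coloured by family, over the median (line) and the 10th to 90th percentile (grey band) of all coding loci in bins of length. Grik4, Grik3, Grm4, Grik5 and Grin2c lie above the band, while Grik1 and Grm3 lie below it with no shared region in 494 and 340 kb. Cacng5 (5 regions in 140 kb) lies at its upper edge and Grin3a (none in 284 kb) at its lower edge.

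The kainate receptor genes held 52 of the 159 shared regions over 5 loci, more than any other family here, and their counts ran from 0 to 21. The number with all 3 antibodies was 8, against 9 for the metabotropic receptors, and Grik4, first by shared regions, had 2 of these 8. Grik4 and Grik5 encode the high-affinity subunits, which need a partner from Grik1, Grik2 or Grik3 to form a channel. Grik4 (chr9:42518135-42944493, minus strand) had 35 ab1 peaks, 23 ab2 peaks and 2 ab3 peaks, which merged into 33 regions, 21 of them shared. That was 3.99 shared regions per 100 kb, a higher density than 91.7% of coding loci. Its regions fell into groups along the gene. There were 7 in intron 1, 3 in intron 3 between 145 and 207 kb from the TSS, and 11 from intron 8 onward to the flank beyond the 3' end, all 11 closer to a start of Tbcel than to Grik4's, also when every annotated start of both genes was counted. The highest Grik4 region, in intron 8 at 301 kb from its TSS (166 kb from another annotated start of the gene), had peak scores of 1731 with ab1, 1096 with ab2 and 178 with ab3. The score is 10 times the −log10 of the peak's p-value and was not scaled between libraries, so it ranks peaks within an antibody. The summed score used below adds up, for a region, the top peak score that each antibody gave, is led by ab1 and is larger where ab3 adds a peak, and it serves only to order the regions described.

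Grik3 (chr4:125490700-125714173, plus strand) had 24, 16 and 3 peaks of ab1, ab2 and ab3, and 15 shared regions, or 4.64 per 100 kb. No other coding TSS was closer to any of the 15. They were spread over the upstream flank (4), intron 1 (5), later introns (5) and the downstream flank (1). The highest stood 12.6 kb before the TSS with scores of 1565, 937 and 172, and contained the CATCTGG box printed above. Grik5 (chr7:25009849-25072346, minus strand) had 7 shared regions, or 4.31 per 100 kb, but the TSS of another gene was nearer to 6 of them (4 when every annotated start was counted). Its highest region (scores 1971, 1208 and 122) lay inside the neighbouring gene Rabac1. Grik2 (chr10:49094833-49788766, minus strand) had 9 shared regions, equal to the median of its length class, all within the gene span, and all 9 nearest to its own TSS. Its highest region, in intron 4, had scores of 1280, 733 and 82.0. Grik1 had no shared region in 494 kb. It had 4 peaks of ab1 and 1 of ab2, none overlapping, with scores from 52.5 to 152.

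The metabotropic receptor genes held 30 shared regions at 6 of 7 loci, and 9 of these regions had all 3 antibodies, the most of any family. Grm4 (chr17:27425907-27521403, minus strand), a presynaptic receptor coupled to Gi, had 18 ab1 peaks, 13 ab2 peaks and 4 ab3 peaks. These gave 12 shared regions, or 6.14 per 100 kb, above 97.6% of coding loci. The flank past its 3' end held 5 of the 12, among them the highest region of the whole family (chr17:27388725-27390491), with scores of 3100, 2450 and 499. By antibody, these were above 97.7%, 99.3% and 96.7% of the scores in the shared regions of the genome, and no coding TSS was nearer to it than that of Grm4, at 132 kb by the longest transcript and 83.5 kb from the closest annotated start of Grm4. In the other flank, regions lay 278 bp from the TSS of Hmga1 and 68 bp from that of AI413582.

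Grm7 (chr6:110645582-111567230, plus strand), another presynaptic Gi-coupled receptor, showed the opposite arrangement, with few regions and a single dominant one. It had 5 shared regions in a 1022 kb locus, or 0.489 per 100 kb, below the coding median. The dominant region, in intron 8 at 728 kb from the TSS of the longest transcript (122.6 kb from the closest annotated start of Grm7), had scores of 3100, 1909 and 356, while the summed scores of the other 4 ran from 133 to 690. The ab1 score of 3100 was shared by 661 peaks of that antibody, so it does not order Grm4 and Grm7. Grm8 (3 shared regions) and Grm5 (5) were also sparse for loci of 959 and 651 kb. The highest region of each was bound with all 3 antibodies far from the TSS, at 726 kb in Grm8 (summed score 1626) and at 546 kb, in a coding exon, in Grm5 (2149). The TSS of Ctsc, at 148 kb, was nearer to that Grm5 region, and it was also the nearest coding TSS to 2 other Grm5 regions. Grm2 had 4 shared regions, including a pair at 1.59 and 8.70 kb before its TSS with summed scores of 1972 and 2065, the latter 0.825 kb from an annotated start of Tex264. Grm6, known from retinal ON bipolar cells, had a single shared region, at the TSS of Zfp2.

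The NMDA receptor genes held 33 shared regions at 6 of 7 loci, 7 of them with all 3 antibodies. Grin2c (chr11:115249169-115267243, minus strand), a subunit best known from the cerebellum and from later stages, had the highest density of shared regions of the 32 loci, although without ab1 or without ab2 it had 2 regions (1.69 per 100 kb) and Grm4, with 4 (2.05), stood first. It had 11 ab1 peaks, 9 ab2 peaks and 2 ab3 peaks, and its 8 shared regions gave 6.78 per 100 kb, above 98.3% of coding loci. Of the 8, 6 lay beyond the 3' end of Grin2c and 5 inside the neighbouring gene Tmem104, so the density is that of the interval as much as of Grin2c. The highest was at a coding exon near the 3' end, with scores of 1731, 584 and 112. Grin2b and Grin2a encode the main regulatory subunits of forebrain NMDA receptors, Grin2b being the early form. Grin2b (chr6:135713233-136173125, minus strand) had 9 shared regions, equal to its class median, and 7 of these were in the gene span. Their summed scores were modest, from 135 to 482 in the span, and its only 3-antibody region (1018) lay past the 3' end. Grin2a had 7 shared regions, all in the gene span and all nearest to its own TSS. Of these, 3 had all 3 antibodies, with summed scores of 531, 1723 and 2088.

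Grin1, the obligatory NMDA subunit, had 4 shared regions, of which 3 lay within 1 kb of the TSS of a downstream neighbour (Tmem203, Tprn and Lrrc26) and the other at its own TSS. Grin2d had 2 shared regions and Grin3b had 3, none of them in the gene span and none nearest to the member's own TSS. Grin3a, an inhibitory subunit of juvenile synapses, had no shared region at its locus and 2 ab1 peaks with scores of 50.8 and 69.1, the latter 0.190 kb from its TSS.

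All 4 AMPA receptor genes had shared regions, 15 in total, and their densities ran from 0.418 to 2.26 per 100 kb. Gria1 had 6, with 5 in the gene span. Its region at 282 kb from the TSS (117.6 kb from the closest annotated start of Gria1) had scores of 691, 280 and 64.7. The region at 174 kb, only 8.83 kb from another annotated start, had 447, 269 and 86.3, and both were found with all 3 antibodies. Gria2, whose edited subunit makes the receptor impermeable to calcium, had 5 shared regions, all nearest to its own TSS and none with ab3. Its highest region was in intron 2 at 28.3 kb (ab1 744, ab2 378). Gria3 and Gria4 had 2 shared regions each, below the median of 4 for their length class. The highest ab1 score over the AMPA loci was 744, against 3100 over the whole set.

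Grid1 (chr14:34820108-35583379, plus strand), the delta receptor gene in the set, had 17 ab1 peaks, 11 ab2 peaks and 3 ab3 peaks. All 11 shared regions lay in introns 2, 3 and 4, between 19.98 and 348 kb from the TSS, and none within 1 kb of it. The gene had 2 of the 4 regions with the highest summed scores in the family, at 125 kb (scores 2623, 1776 and 338) and at 320 kb (2816, 1174 and 228). The first was above 96.6%, 98.3% and 92.8% of the genome's scores with ab1, ab2 and ab3, and the other above 97.1%, 95.8% and 86.04%. Loci of its length class had a median of 9 shared regions, close to the 11 of Grid1.

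The TARP genes held 16 shared regions at 5 of 6 loci. Cacng2, which encodes stargazin, had 6 shared regions, 3 in intron 1 and 3 beyond its 3' end around the genes Foxred2 and Eif3d. Cacng5 (chr11:107874671-107915055, minus strand) had 5, or 3.56 per 100 kb. Its highest (ab1 1122, ab2 651) lay 4.90 kb before the TSS, and none had a peak of ab3. Cacng4 (chr11:107732357-107794557, minus strand) had only 2, both in intron 1 and both bound with all 3 antibodies. The region with the E-box repeat, 2.79 kb from the TSS, had scores of 2072, 788 and 151. The authors removed reads that mapped to several places, and whether the repeat alters the mapping there was not tested. Cacng3 had 2 shared regions and Cacng7 had 1. Of the kainate receptor partners, Neto1 had 2 shared regions with summed scores of 148 and 377.

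The 5 genes without a shared region were Grin3a, Grik1, Grm3, Cacng8 and Neto2. Each still had at least 1 ab1 peak. Grm3 had a single peak, in intron 1, with an ab1 score of 108. Cacng8 and Neto2 each had 1 peak, with ab1 scores of 66.7 and 62.2. The scores of the lists start at 50, and the median ab1 score over all ab1 peaks was 149, which only 1 peak of these 5 genes exceeded (152, at Grik1). Grik1 and Grm3 lie in long loci (494 and 340 kb) of a class in which 91.2% of coding loci had a shared region.

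**Figure D3:**
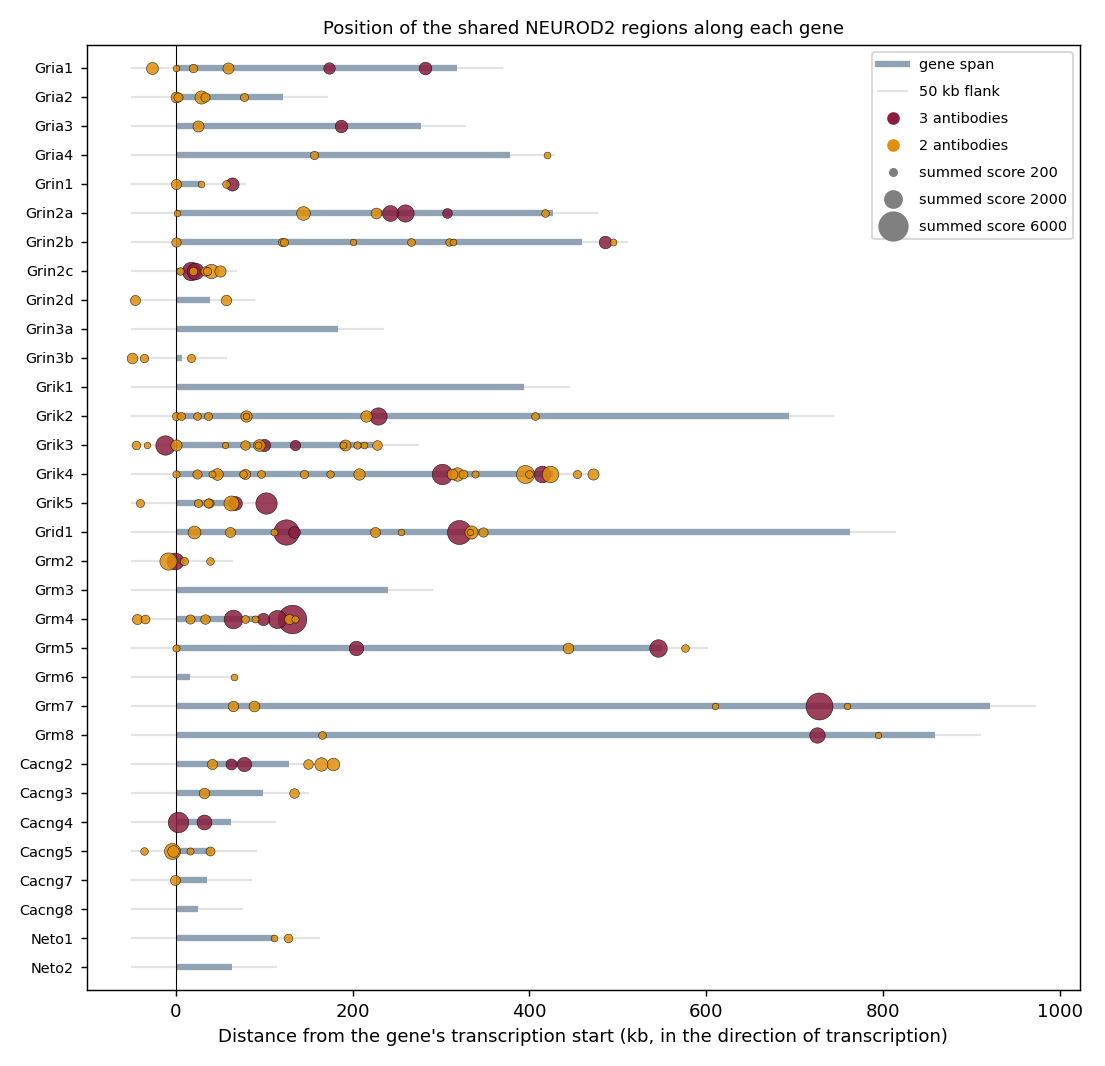
Position of the 159 shared regions along each gene, in kb from its TSS in the direction of transcription, with the gene span as a thick line, its 50 kb flanks as a thin line, point area growing with the score summed over antibodies and colour giving the number of antibodies. The largest points lie at 132 kb for Grm4, 728 kb for Grm7 and 125 and 320 kb for Grid1 from the TSS of the longest transcript, and the closest annotated start of the gene is at 83.5, 122.6, 125 and 310.2 kb.

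Of the 159 shared regions, 108 (67.9%, interval 60.3 to 74.7%) lay inside the span of the gene, which is near the 71.6% of the searched sequence that the gene spans make up. A share of 86.8% lay over 1 kb from any coding TSS, as did 87.3% of all shared regions of the genome. In the gene spans, 73 were in introns after the first and 23 in intron 1. The upstream flank held 18, the downstream flank 33, coding exons 4 and noncoding parts of exons 8. For 117 regions (73.6%) the member's TSS was the nearest coding TSS, and for 42 it was that of another gene. Counting every annotated start of all coding genes, the numbers were 119 and 40. Regions with all 3 antibodies were farther out. Their median distance from the member's TSS was 133 kb, against 75.7 kb for regions with ab1 and ab2 alone, and 71.5 against 47.6 kb when every annotated start of the gene was counted. None of the 8 regions within 1 kb had ab3, as against 2 of 11 from 1 to 10 kb, 4 of 41 from 10 to 50 kb, 15 of 53 from 50 to 200 kb and 13 of 46 beyond 200 kb. In the genome, 7.88% of the shared regions within 1 kb of a coding TSS had all 3 antibodies and 24.3% of those farther away did, so a count of 0 of 8 is near the general share.

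The 8 regions within 1 kb of the family's own TSSs had a median ab1 score of 244, against 328 for all 159, and a median ab2 score of 109.99, against 154. They belonged to Gria1, Gria2, Grin1, Grin2b, Grik2, Grik3, Grik4 and Grm5, so to 4 of the receptor families, and all had peaks of ab1 and ab2 only. The ab1 scores ran from 67.6 for Gria1 to 655 for Grik3, and the ab2 scores from 70.1 for Gria1 to 320 for Grin1. Grik3 (ab1 655, ab2 110), Gria2 (511 and 179) and Grin1 (287 and 320) were the highest by sum. Grin2b followed with 371 and 110, Grik2 with 201 and 116, Grik4 with 133 and 78.9, and Grm5 with 120 and 77.8. Gria1, with 67.6 and 70.1, was the lowest. The lowest ab1 score of any 3-antibody region in the family was 308, and 3 of the 8 TSS regions reached it. A further 13 shared regions, at 9 loci, lay within 1 kb of the TSS of a neighbouring gene.

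Regions at start sites were richer in G and C than the rest, here as in the whole genome. The upstream 100 bases of Gria2 and Grik3 show it, being the promoters with the highest scores outside annotated UTRs. They were read from the RefSeq promoter windows on GRCm38, in the direction of transcription up to the base before the RefSeq start, and capitals mark CG dinucleotides.
Gria2, chr3:80802836-80802935, minus strand: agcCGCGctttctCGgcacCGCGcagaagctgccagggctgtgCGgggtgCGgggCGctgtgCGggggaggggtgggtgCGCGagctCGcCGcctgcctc
Grik3, chr4:125490596-125490695, plus strand: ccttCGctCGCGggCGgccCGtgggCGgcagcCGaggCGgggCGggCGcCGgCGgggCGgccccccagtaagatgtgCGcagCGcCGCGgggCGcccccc
Both are CpG-rich, with 13 CG in Gria2 and 18 in Grik3 and G+C shares of 77.0% and 86.0%, and neither has an extended E-box. Over the 21 shared regions within 1 kb of any coding TSS, the median G+C share of the central 200 bp was 67% (range 49.5 to 75.0%) with a median of 16 CG. Over the 138 regions farther away it was 50.5% (32.5 to 76.5%) with a median of 3 CG. The genome medians were 68% and 49.5%. RefSeq promoter windows, which run from 250 bases before to 50 after the start, were found for 21 of the 32 genes, 26 windows in all. An extended E-box was in 3 of the 26 (11.5%), beside 26.3% of 32851 windows genome-wide. Some genes, such as Grm7 and Grm8, had several windows, and a count of 3 is too small to set these shares apart. The 5 windows that overlapped a shared region (Gria2, Grin1, Grik2, Grik3 and Grik4) had none.

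The extended E-box was found near the centre (within the middle 200 bp) of 93 of the 159 shared regions (58.5%, interval 50.7 to 65.9%), against 59.7% of all shared regions of the genome. In 200-bp windows 1000 bp outside the regions the shares were 17.6% and 25.2%, so the motif was more frequent at the centre than beside the peaks. Away from start sites the share was 65.2% (90 of 138, interval 56.96 to 72.7%), and within 1 kb of a coding TSS it was 14.3% (3 of 21, interval 4.98 to 34.6%), intervals that do not overlap. The genome had the same contrast, 65.4% and 20.8%. The loose form CANNTG, which arises often by composition alone, was in 84.3% of the family's regions and 83.7% of all. Among the cores, CAGATG was present in 42.8% of the regions (genome 39.1%), CAGCTG in 18.9% (23.4%) and CATATG in 6.29% (10.6%). The share was 64.7% with 3 antibodies and 56.8% with 2. By family it was 40.0% at AMPA, 42.4% at NMDA, 61.5% at kainate, 70.0% at metabotropic and 56.3% at TARP loci. At Grid1, 10 of the 11 regions had the motif. The regions of a family lie in few genes, so these shares can rest on a single locus.

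**Figure D4:**
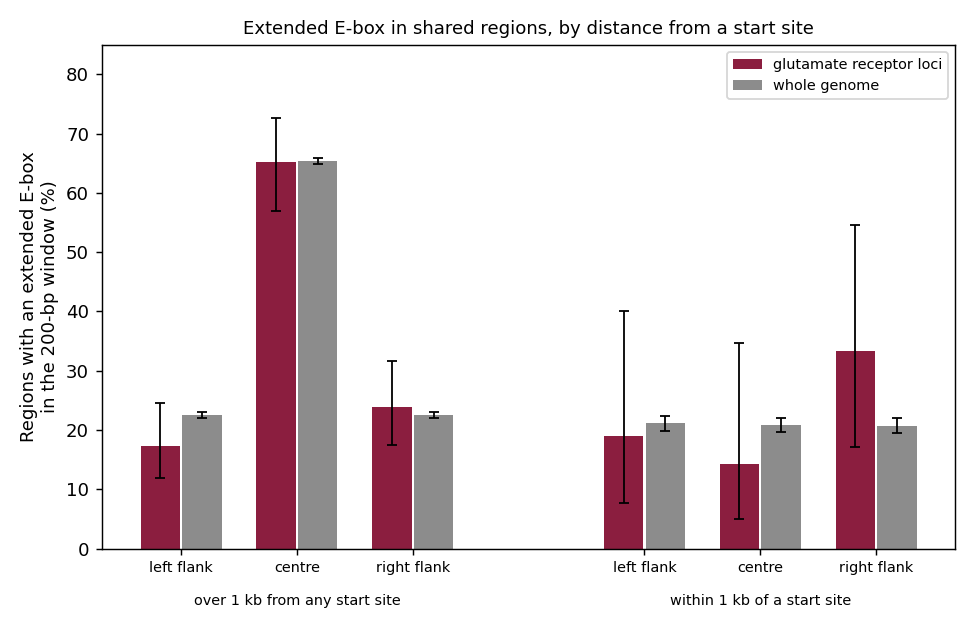
Share of shared regions (%) with an extended E-box in the central 200-bp window and in 200-bp windows 1000 bp to the left (lower coordinate) and right, for the glutamate receptor loci and the whole genome, with 95% Wilson intervals as error bars. Away from start sites the centre stands far above the flanks (65.2%), and within 1 kb of a start site the centre (14.3%) does not.

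The antibodies differed widely in yield, while the 32 loci took a like share of the peaks of each. The genome-wide lists had 51841 (ab1), 35310 (ab2) and 7470 (ab3) peaks, and the 32 loci held 251, 174 and 34 of them. As shares these were 0.484%, 0.493% and 0.455% (0.477% ± 0.0197, SD, n = 3 antibodies). Every gene had an ab1 peak, 28 had an ab2 peak and 18 an ab3 peak. All 34 regions with an ab3 peak also had peaks of ab1 and ab2. Conversely 81 regions had ab1 alone, 12 ab2 alone and 0 ab3 alone. The ab3 peaks fell on the regions that were strong with the other antibodies. In the 34 regions with all 3, the ab1 score ran from 308 to 3100 with a median of 1108, while in the 125 with ab1 and ab2 it ran from 53.9 to 1658 with a median of 232. Of the 25 regions with an ab1 score of at least 1000, 19 had ab3, against 15 of the other 134. The share of shared regions with all 3 antibodies, 21.4% (interval 15.7 to 28.4%), was near the genome's 22.2%. The share of each antibody's own peaks at these loci with an extended E-box was highest for ab3 (76.5%), with 62.5% for ab1 and 53.4% for ab2, a mean of 64.2% ± 11.6 (SD, n = 3 antibodies). Read depth was not used here, so how far it sets these differences was not tested.

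**Figure D5:**
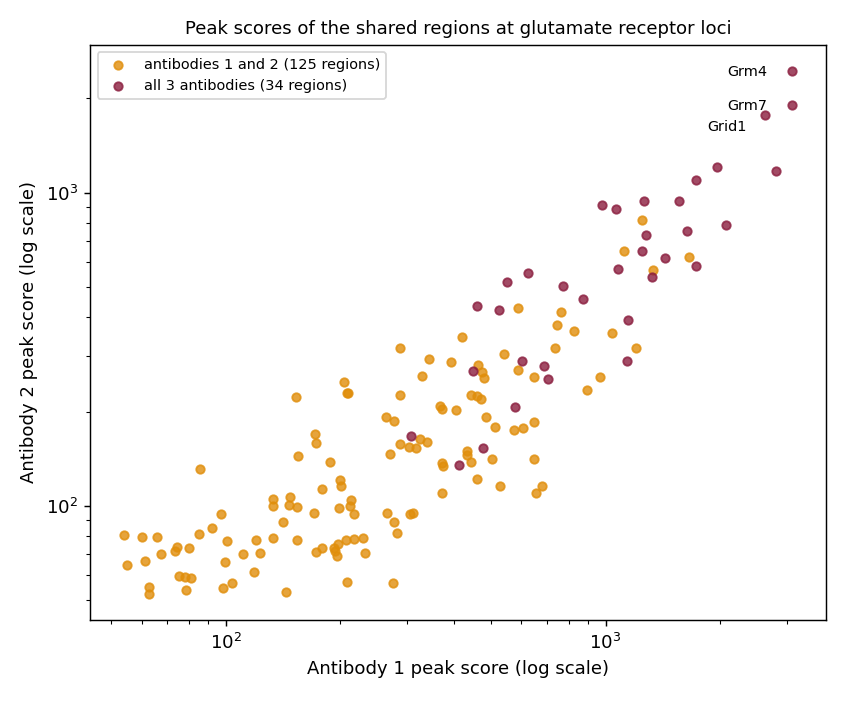
Peak score with ab1 (x axis, log scale) against ab2 (y axis, log scale) for the 159 shared regions at glutamate receptor loci, each point a region, coloured by whether ab3 also had a peak. The 34 regions with ab3 start at an ab1 score of 308 and reach 3100, and Grm4 and Grm7 share the highest ab1 score.

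Across the 159 regions Spearman's rho between the ab1 and ab2 scores was 0.87, and across all shared regions of the genome it was 0.85. Over the 34 regions with ab3 it was 0.78 between ab1 and ab3 (genome 0.74) and 0.73 between ab2 and ab3 (genome 0.77). The points share their 3 libraries and were all selected as peaks, so these values describe the ranking only. The family's median scores were 328 with ab1 and 154 with ab2, against 278 and 140.2 in the genome. With ab3 the family's median was the lower, at 86.4 against 90.5. Among the highest 10% of the genome's scores were 12 of the 159 regions with ab1 (7.55%), 14 of 159 with ab2 (8.81%) and 3 of 34 with ab3 (8.82%).

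Other genes of the glutamate synapse were counted in the same way. They are transporters, scaffolds and enzymes around the receptors, but also AMPA receptor partners (Cnih2, Cnih3, Shisa9 and Gsg1l) and Cbln genes. Of 36 such genes, 34 had a shared region (94.4%, against 67.6% of coding loci), 23 a 3-antibody region (63.9%, against 26.7%) and 10 a shared region within 1 kb of the TSS (27.8%, against 20.8%), with a median of 1.93 shared regions per 100 kb. Slc17a7, the vesicular glutamate transporter of cortical neurons, had 8 shared regions in 112 kb, and Gsg1l, another AMPA receptor partner, had 18 in 304 kb. Of 23 genes for GABA and glycine receptor subunits, 16 had a shared region (69.6%), 5 a 3-antibody region (21.7%) and 2 a shared region within 1 kb of the TSS (8.70%). Their median was 0.494 per 100 kb. The shares of all coding loci (67.6%, 26.7% and 20.8%) come from shorter loci. Gabbr2, a metabotropic GABA receptor subunit, had 16 of the regions in that list. The median loci were 169 kb for the synapse genes and 192 kb for the inhibitory receptors, beside 225 kb for the glutamate receptor genes, whose median density of 1.25 lay between the other lists. Over all coding loci the median was 117 kb. Of coding loci of 150 to 250 kb, 81.9% had a shared region. No test compares the lists, and they were chosen with earlier results of these data known.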

How the data were processed

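Pooled E14.5 cortices of BALB/c mice were used for ChIP with 3 NEUROD2 antibodies, 1 library each, and with GFP antibodies as controls. The authors mapped reads with Bowtie to mm10, removed duplicates and reads with several mapping places, and found peaks per antibody with MACS on Galaxy with the host-matched GFP library as control. The deposited peak lists give a start, an end and a score (10 times −log10 of the MACS p-value), which is unscaled between libraries. Depth per library was not used here.

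Peaks were merged where they overlapped by at least 1 bp. Distances were measured from peak or region midpoints, and all coordinates lay within the chromosomes of GRCm38. Densities were set beside all 21938 protein-coding loci of GENCODE M21. The motif was searched on both strands with Python 3.11.15 and pysam 0.24.0, intervals came from scipy 1.17.1, and the counting code was tested on simulated data.

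The genes described in full were those with the 6 highest counts of shared regions, densities or summed scores, those with a TSS region and those without a shared region. Genes named beyond these were chosen after their values were seen. The members, lists and rules were chosen with earlier results of these data known. Alternatives changed the score minimum, the overlap, the number of antibodies, the flank, the motif, the window and the antibodies used.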

Additional observations from a re-analysis of the deposited data

How the results depend on the processing

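Which antibodies were required mattered most. With peaks of all 3 antibodies required, the shared regions fell from 159 to 34, the genes with a shared region from 27 to 18, the median density to 0.115 per 100 kb and the genes with a TSS region to 0. Leaving out each antibody in turn gave 34 to 159 shared regions, 18 to 27 genes with a shared region, densities of 0.115 to 1.25 and 0 to 8 genes with a TSS region, with the low values without ab1 or ab2, as few regions can pair with ab3. A score minimum of 100 left 11 regions with all 3 antibodies and 5 genes with a TSS region. Without flanks there were 106 shared regions and 4 genes with a TSS region. The E-box share rose to 76.1% in 400-bp windows and to 84.3% for CANNTG, as wider windows and looser motifs must. The remaining counts moved by at most 1.5 times, and the remaining E-box shares (57.01 to 67.6%) and densities by less than the SD between antibodies. For the region counts of single named genes, 35 values moved by over 1.5 times and 55 did not. Without ab1 or without ab2, Grik4 fell from 21 to 2, Grik3 from 15 to 3, Grm4 from 12 to 4, Grid1 from 11 to 3, Grik2 and Grin2b from 9 to 1, Grin2c from 8 to 2, Grik5 from 7 to 2 and Cacng5 from 5 to 0, so their order depends on these libraries. Counting every annotated start, an alternative chosen after seeing the data, moved the regions nearest to the member from 117 to 119. No paired analysis was possible because each antibody gave a single library and no result comes from a test. The limits are the lack of replicate libraries, the untested part of depth, and the rule that gives a region to a gene by distance alone.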
